A study of Mus musculus with 2 samples.

Results

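Long intergenic noncoding RNAs (lincRNAs) are transcripts without a recognised protein product that were annotated between coding genes. Many mouse lincRNAs have no descriptive name and carry a predicted symbol, either Gm with a number or an identifier that ends in Rik. The RNAs described here were chosen by 3 criteria. They had at least 1 transcript of biotype lincRNA, a predicted symbol, and 5 TPM or more in the gene table of both libraries. TPM is a relative abundance, scaled to length, that sums to the same total in each library. Of 5459 predicted-symbol lincRNA genes, 61 met the rule and 5398 did not, and the annotation held 6058 lincRNA genes among 55450 genes in all. A further 27 lincRNAs with another symbol reached the same level. The TPM values chose the members, so their levels are given as a description.

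The series measured total RNA, depleted of ribosomal RNA, from the nucleoplasm of C57BL/6J mouse macrophages grown out of bone marrow. These primary cells had received 100 ng/ml lipid A for 90 min. Lipid A is the lipid anchor of bacterial lipopolysaccharide and the ligand of TLR4. There was 1 group of 2 biological replicates, and the labels tie both to one donor entry, so part of their spread may be technical. Library preparation began with 500 ng RNA in replicate 2 and 1 µg in replicate 1. Sex and age were not collected, and no unstimulated or cytoplasmic library was analysed here. Replicate 2 held 14939143 estimated counts and replicate 1 held 22669533. All 10 macrophage markers reached 1 TPM in both libraries, whereas 0 of 6 T and NK cell markers, 0 of 5 B cell markers, 0 of 4 erythroid markers and 0 of 5 stromal and endothelial markers did, and 1 of 5 neutrophil markers did. In bulk RNA, fewer expressing cells and less RNA per cell cannot be told apart.

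LincRNAs as a class are often more abundant in the nucleus than in the cytoplasm. Some act on chromatin or on the gene next to them, some bind proteins or microRNAs, and some are the precursors of small RNAs. For others the act of transcription, rather than the product, has been linked to a nearby gene. In macrophages, TLR4 signalling acts through NF-kB, AP-1 and interferon-regulatory factors on promoters and enhancers that the myeloid factor PU.1 has opened.

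Of the members, 2 hold hairpins of microRNAs in exons on their own strand, and the mature sequences are shown because they are the known products of these loci. Capitals mark the seed, bases 2 to 8, which pairs with target mRNAs. Sequences are from RefSeq (GRCm38.p6).
miR-29b-3p: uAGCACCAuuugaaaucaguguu
miR-29c-3p: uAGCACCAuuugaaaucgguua
let-7a-5p: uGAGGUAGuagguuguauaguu
let-7d-5p: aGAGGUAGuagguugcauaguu
let-7f-5p: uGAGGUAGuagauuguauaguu
The miR-29 sequences share the seed AGCACCA and the let-7 sequences share the seed GAGGUAG. Exons of A330023F24Rik hold the hairpins of miR-29b-2 and miR-29c, on chromosome 1. Exons of 6720427I07Rik, on chromosome 13, hold the hairpins of let-7d, let-7f-1 and let-7a-1. Another 2 members lie at the edge of a microRNA cluster on the same strand without holding a mature arm. Gm27019, on chromosome 6, overlaps the hairpin of miR-29b-1 by 2 bases, and Gm26532, on chromosome 8, overlaps that of miR-24-2 by 2 bases.

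The members that hold hairpins had levels between 7.59 and 11.5 TPM. A330023F24Rik had 8.91 TPM in replicate 2 and 7.80 TPM in replicate 1. 6720427I07Rik had 11.5 TPM in replicate 2 and 7.59 TPM in replicate 1. At the cluster edges, Gm27019 had 17.4 TPM in replicate 2 and 39.2 TPM in replicate 1. Gm26532 had 5.94 TPM in replicate 2 and 5.59 TPM in replicate 1, close to the threshold. All of these microRNA genes were listed at 0 in both libraries. The labels give a size range of 250 to 400 for both libraries. Whether this is a size of the RNA or of the library fragments is not settled here, so the mature microRNAs are not taken as measured. Another member, 1110038B12Rik, holds the small nucleolar RNA genes Snord52 and Gm25744, and had 7.91 TPM in replicate 2 and 8.03 TPM in replicate 1. Both overlap annotated exons of its transcripts, which include retained-intron forms, so a place in the spliced RNA is not shown.

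The promoters of 4 members are shown as the second set of sequences. Gm20559 is the most abundant member outside the ribosomal RNA locus described below. Gm14005 is the RNA that RefSeq names Morrbid. Gm7160 and 9330175E14Rik start close to a coding gene on the other strand and were among the 5 members with the lowest ratio between the libraries. Each window runs from 250 bases before to 50 bases after the RefSeq start, 5′ to 3′ on the strand of the gene (RefSeq, GRCm38.p6). The window of Gm14005 is at the start of an inner transcript, 73414 bases from the outermost GENCODE start of the gene, and the other 3 are within 10 bases of that start. Capitals mark matches to the motifs searched.
Gm20559 (chr6:3346089-3346388, minus strand): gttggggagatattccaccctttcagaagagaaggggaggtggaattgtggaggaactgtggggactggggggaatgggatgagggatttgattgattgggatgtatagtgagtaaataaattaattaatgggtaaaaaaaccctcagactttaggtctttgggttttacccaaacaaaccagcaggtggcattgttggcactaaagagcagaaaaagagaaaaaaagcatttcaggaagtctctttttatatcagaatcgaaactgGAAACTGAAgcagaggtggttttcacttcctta
Gm14005 (chr2:128429302-128429601, minus strand): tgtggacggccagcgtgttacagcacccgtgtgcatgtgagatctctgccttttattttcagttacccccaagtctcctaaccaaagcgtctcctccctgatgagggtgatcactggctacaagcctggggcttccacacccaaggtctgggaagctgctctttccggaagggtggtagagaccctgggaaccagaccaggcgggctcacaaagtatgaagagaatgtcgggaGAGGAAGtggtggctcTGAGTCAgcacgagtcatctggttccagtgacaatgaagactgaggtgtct
Gm7160 (chr1:105990233-105990532, minus strand): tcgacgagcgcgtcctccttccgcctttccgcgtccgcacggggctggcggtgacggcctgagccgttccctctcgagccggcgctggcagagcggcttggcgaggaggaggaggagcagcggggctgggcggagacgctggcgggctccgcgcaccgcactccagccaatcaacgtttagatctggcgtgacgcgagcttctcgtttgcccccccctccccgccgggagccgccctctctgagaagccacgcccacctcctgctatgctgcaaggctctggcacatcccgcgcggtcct
9330175E14Rik (chr8:94435054-94435353, minus strand): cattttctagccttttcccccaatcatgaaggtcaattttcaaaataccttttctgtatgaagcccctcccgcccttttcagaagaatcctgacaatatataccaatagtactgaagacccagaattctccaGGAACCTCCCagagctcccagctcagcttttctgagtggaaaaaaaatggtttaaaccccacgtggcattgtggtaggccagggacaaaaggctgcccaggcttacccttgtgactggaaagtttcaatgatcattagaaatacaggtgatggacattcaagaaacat

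A RefSeq promoter window was matched for 23 of the 61 members, and in 14 of the 23 its start lay within 100 bases of the start of a GENCODE transcript. In 9 it lay within 100 bases of the gene's outermost start. Both strands were searched. The interferon-stimulated response element, written GAAANNGAA, matched in 6 of 23 members (26.1%), against 8.56% of all 32851 promoter windows. On the given strand alone it matched in 3 of 23, against 4.48%. Of the windows with a match on either strand, that of Gm46224 started 1417 bases and that of Gm35585 281 bases from the nearest GENCODE start. The others started within 100 bases of one. In Gm20559 the match lies just after the start. The AP-1 motif TGANTCA matched in 4 of 23 (17.4%), against 7.81% of all windows. Among these, the window of Gm13067 started 19608 bases and that of 1110002J07Rik 126 bases from the nearest GENCODE start, and the others within 100 bases. The PU.1 motif GAGGAAG matched in 2 of 23 (8.70%), against 13.6%. Gm14005 holds both an AP-1 and a PU.1 match, which do not overlap and lie next to its start. The NF-kB motif matched in 2 of 23 (8.70%), against 8.46%, and one of these is 9330175E14Rik. The cyclic AMP response element TGACGTCA matched in 0 of 23, against 1.79%. The Gm7160 window held no match to these letters. A CpG ratio (observed over expected) of 0.6 or more was found in 9 of 23 windows (39.1%), against 35.8% of all windows.

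The members spanned a wide range of levels. The median was 17.4 TPM in replicate 2 and 14.59 TPM in replicate 1. In both libraries 37 members reached 10 TPM and 3 reached 100 TPM. The members took 1.07 ± 0.0681% of all estimated counts (SD, n = 2). Gm26917 and Gm42418 held most of it, with 60.7% of the members' counts in replicate 2 and 65.1% in replicate 1. Without them the share was 0.396 ± 0.00812% (SD, n = 2). The 5398 predicted-symbol lincRNAs under the threshold took 0.123% in replicate 2 and 0.122% in replicate 1, and 4342 of them were at 0 TPM in both libraries. An estimated count of 0 allows up to 3 counts, and such limits cover counting error only. The 3 members named next lay just inside the threshold. Gm28875 had 6.22 TPM in replicate 2 and 5.02 TPM in replicate 1. Gm26624 had 9.87 and 5.21 TPM in that order, and 5930403N24Rik had 5.45 and 8.83 TPM. Just outside were Gm26546 with 7.85 and 4.99 TPM, 2010110E17Rik with 5.82 and 4.81 TPM, and Gm38102 with 4.61 and 4.55 TPM, replicate 2 before replicate 1.

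**Figure D1:**
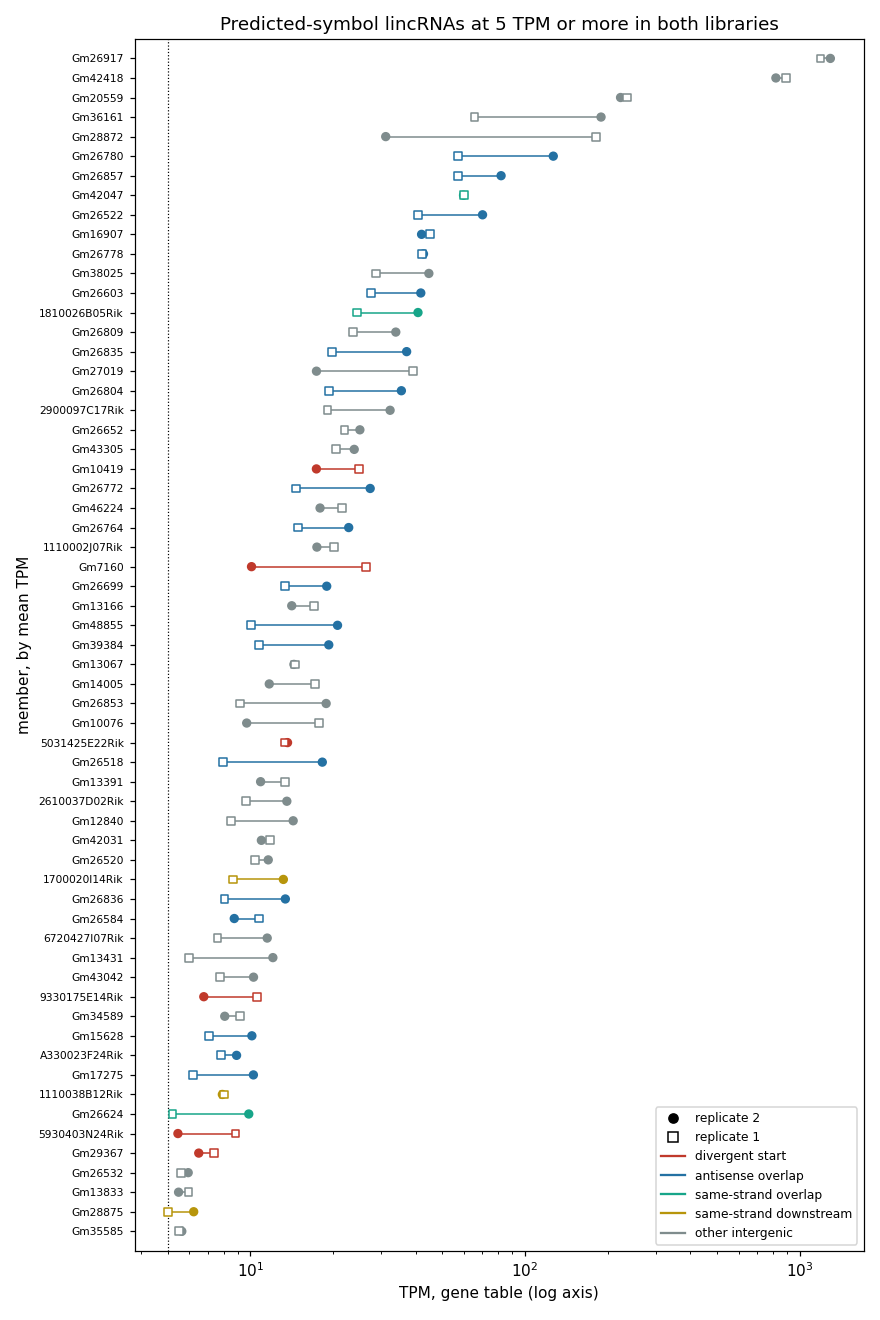
TPM of all 61 members in the gene table (log axis), as filled circles for replicate 2 and open squares for replicate 1, ordered by mean TPM and coloured by place relative to protein-coding genes. Gm26917 and Gm42418 stand apart from the rest, and the dotted line marks the threshold of 5 TPM.

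The top of the list was set by a ribosomal RNA locus on chromosome 17. Gm26917 (chr17:39843013-39846341) had 1293 TPM in replicate 2 and 1189.7 TPM in replicate 1. Its neighbour Gm42418 (chr17:39846958-39848788) had 819 TPM in replicate 2 and 889 TPM in replicate 1. RefSeq gives Gm42418 the name Rn18s-rs5, a sequence related to 18S ribosomal RNA, and 99.5% of its exonic bases lie under exons of opposite-strand genes, among them the annotated rRNA gene CT010467.1. CT010467.1 itself had 127 TPM in replicate 2 and 332 TPM in replicate 1, but 1989 TPM and 1707 TPM in the second quantification described below. Gm42418 had 453 TPM in replicate 2 and 564 TPM in replicate 1 there. Whether the counts followed the strand of the reads is not given in the sources used here, so reads of such a gene and of its opposite-strand partner cannot be told apart. What part ribosomal RNA left after depletion had in these 2 levels was not tested.

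Gm20559 (chr6), near the interferon-inducible gene Samd9l, was the most abundant member away from that locus, with 223 TPM in replicate 2 and 235 TPM in replicate 1. Samd9l had 65.6 TPM in replicate 2 and 88.8 TPM in replicate 1. Gm36161 had 189 TPM in replicate 2 and 65.4 TPM in replicate 1, in a region of chromosome 13 with near-identical copies: its longest transcript matched Gm21188 over 100% of its length at up to 97.3% identity. Gm28872 was listed at 31.1 TPM in replicate 2 and 181 TPM in replicate 1, but from only 3 and 35 estimated counts. It is 158 bases long and lies opposite the U11 spliceosomal RNA gene Rnu11 over 84.8% of its bases. Its deposited TPM intervals were 7.16 to 77.5 in replicate 2 and 124 to 241 in replicate 1. Its level is therefore poorly determined.

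Of the other abundant members, 5 overlapped a coding gene on the opposite strand. Gm26780, opposite the coding gene Abr, had 127 TPM in replicate 2 and 56.9 TPM in replicate 1. Gm26857, opposite the Src-family kinase gene Lyn, had 81.8 TPM in replicate 2 and 57.1 TPM in replicate 1. Gm26522, opposite Ctsc, which encodes the protease cathepsin C, had 70.0 TPM in replicate 2 and 40.7 TPM in replicate 1. These 3 were each higher in TPM in replicate 2, as were 4084 of 4929 coding genes at 5 TPM. By scaled counts, described below, the log2 ratios of these 3, replicate 2 over replicate 1, were 0.72, 0.08 and 0.35 in order. The next 3 differed little in TPM between the libraries, but by scaled counts they were lower in replicate 2 (-0.29, -0.54 and -0.43). Gm42047 had 59.7 TPM in replicate 2 and 60.1 TPM in replicate 1, and its longest transcript shares 95.85% of its length with 8 genes. Gm16907, opposite 2010111I01Rik, had 42.0 TPM in replicate 2 and 45.2 TPM in replicate 1. Gm26778 had 42.7 TPM in replicate 2 and 42.3 TPM in replicate 1, and 100% of its exonic bases lie on exons of Kctd12 on the other strand. Gm38025 completed the 12 highest, with 44.7 TPM in replicate 2 and 28.7 TPM in replicate 1. Its longest transcript shares 69.7% of its length with 135 genes.

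A few members have been given names in RefSeq for known functions. 2900097C17Rik is Norad, which binds Pumilio proteins, and had 32.3 TPM in replicate 2 and 19.1 TPM in replicate 1. Its longest transcript shares 51.6% of its length with Gm7292, which had 0.25 TPM in replicate 2 and 0 TPM in replicate 1. 1810026B05Rik is Chaserr, known to restrain the neighbouring chromatin remodeller gene Chd2, and had 40.8 TPM in replicate 2 and 24.4 TPM in replicate 1. Chd2 had 61.1 TPM in replicate 2 and 37.0 TPM in replicate 1. The longest Chaserr transcript shares 45.8% of its length with Chd2 transcripts on the same strand, so reads of that stretch cannot be told apart. Gm14005 is Morrbid, known in short-lived myeloid cells to restrain the pro-apoptotic gene Bcl2l11, and had 11.7 TPM in replicate 2 and 17.2 TPM in replicate 1, from 42 and 118 counts. In the second quantification, described below, it had 42.1 TPM in replicate 2 and 49.1 TPM in replicate 1, 3.18-fold higher. Bcl2l11 had 193 TPM in replicate 2 and 139 TPM in replicate 1. 1700020I14Rik is Oip5os1, also called Cyrano, known to direct the decay of a microRNA, and had 13.2 TPM in replicate 2 and 8.65 TPM in replicate 1. These members were chosen after their values were seen.

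The members were placed relative to protein-coding genes, each in the first class that it met, in the order given here. In all, 6 had a start within 1 kb of an opposite-strand coding start (divergent start), 19 overlapped a coding gene on the opposite strand (antisense overlap) and 3 overlapped one on the same strand. Another 3 started within 10 kb past the end of a coding gene on the same strand, and 30 met none of these. The divergent-start members 9330175E14Rik and Gm10419 also overlap their coding partner on the opposite strand, and are not counted under antisense overlap. Antisense overlap made up 31.1% of the members, against 5.54% of the predicted-symbol lincRNAs under 5 TPM and 22.2% of the 27 other-symbol lincRNAs at 5 TPM. Divergent starts made up 9.84% of members, against 5.87% and 14.8% in those sets. The remaining intergenic class made up 49.2% of members, against 82.7% and 48.1%. The nearest or overlapping coding gene stood at 5 TPM or more in both libraries for 60.7% of members, against 24.8% of those under the threshold and 44.4% of the other-symbol set. The sets were split by TPM, and 4342 of the 5398 genes under the threshold were at 0 TPM in both libraries. Because the strand setting is not given, reads of a coding gene and of a lincRNA opposite it cannot be told apart. The part of such reads in these shares was not tested. These shares are descriptions with no test, since genes are not replicates.

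**Figure D2:**
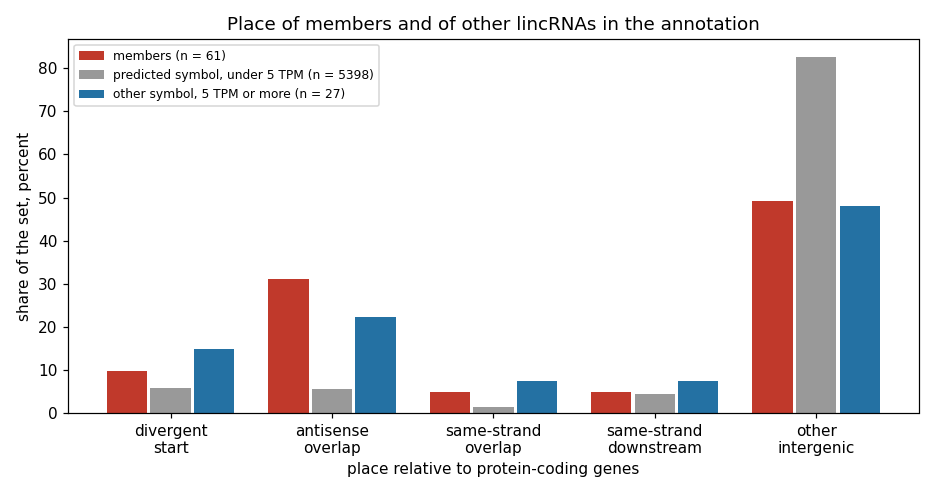
Share of each set, in percent, by place relative to protein-coding genes, for the 61 members, the 5398 predicted-symbol lincRNAs under 5 TPM and the 27 lincRNAs with another symbol at 5 TPM. Antisense overlap is the class in which members and those under 5 TPM lie furthest apart in ratio, at 31.1% and 5.54%.

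In structure the members were longer than the RNAs under the threshold. The median of the longest spliced transcript was 2291 bases in members, 976 bases in the predicted-symbol lincRNAs under 5 TPM and 2556 bases in the other-symbol set. A single exon was annotated for 14.8% of members, against 5.13% and 3.70%. Of the members, 38 had 1 annotated transcript and 23 had more. Among those 23, the leading transcript held a median of 73.8% of the gene's TPM in replicate 2 and 72.8% in replicate 1. In 7 members the annotation mixed lincRNA with other transcript types, and in 6 of these the lincRNA transcripts held under 50% of the gene's TPM in both libraries. In Gm43305 a retained-intron transcript held 100% in replicate 2 and 99.4% in replicate 1. In 1810026B05Rik a retained-intron transcript held 56.1% in replicate 2 and 56.0% in replicate 1. In 5930403N24Rik the lincRNA transcripts held 1.8% in replicate 2 and 1.2% in replicate 1.

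The distance of members to genes of the macrophage response was measured with fixed lists, which do not hold Nlrc5 or Samd9l. Lists of cytokine, interferon, NF-kB and immediate-early genes were used. Of the 61 members, 1 (1.64%) started within 50 kb of a listed gene, against 0.797% of the predicted-symbol lincRNAs under 5 TPM and 0% of the other-symbol set. This was 5930403N24Rik, which starts 482 bases from Marcks, the gene of a kinase substrate that binds membrane and actin. Marcks had 134 TPM in replicate 2 and 123 TPM in replicate 1, far above the lincRNA at 5.45 and 8.83 TPM. Within 100 kb there were 2 members, the second being Gm26778 near Acod1, which encodes the enzyme that makes itaconate. Acod1 had 195 TPM in replicate 2 and 185 TPM in replicate 1.

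The libraries were compared by the log2 ratio of TMM-scaled counts, replicate 2 over replicate 1. With 1 library on each side there is no test, and the ratio shows the spread within 1 group. TPM of longer genes were compressed by short features to different extents, which took 57.1% of all TPM in replicate 2 and 73.9% in replicate 1. The median log2 ratio of TPM over 8566 coding genes was 0.38, and the count ratios were scaled separately. Of 60 members with enough counts, 1 was more than 2-fold higher in replicate 2, where 2.16% of 13510 genes were, and 4 were more than 2-fold lower, where 3.36% were. The members' median log2 ratio was -0.13, against -0.0020 over all genes. Gm28872 had too few counts for a ratio.

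Gm36161 was the member past 2-fold higher, with a log2 ratio of 1.10 from 4235 counts in replicate 2 and 2935 in replicate 1. Gm13431 (0.89), Gm26518 (0.76), Gm26780 (0.72) and Gm48855 (0.61) followed in log2 ratio. Gm13431 rested on 50 counts in replicate 2 and 39 in replicate 1, with 12.1 and 5.99 TPM. Gm26518, opposite the RNA-binding protein gene Pcbp2, had 18.3 TPM in replicate 2 and 7.94 TPM in replicate 1. Gm48855, opposite the kinase gene Map2k1, had 20.8 TPM in replicate 2 and 10.05 TPM in replicate 1. Of these 5, 3 are antisense-overlap members.

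Gm7160 had the lowest log2 ratio, -1.78, with 10.1 TPM in replicate 2 and 26.3 TPM in replicate 1. Gm27019, at the edge of the miR-29b-1 hairpin, had a log2 ratio of -1.51 from 58 counts in replicate 2 and 250 in replicate 1. Gm10076 had a log2 ratio of -1.19, with 9.70 TPM in replicate 2 and 17.8 TPM in replicate 1. 9330175E14Rik had a log2 ratio of -1.09, with 6.77 TPM in replicate 2 and 10.6 TPM in replicate 1. 5930403N24Rik came next at -0.99, just inside 2-fold. Of these 5, 3 are divergent-start members.

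The ratio differed by place. All 6 divergent-start members were lower in replicate 2, with log2 ratios of -1.78 to -0.56 and a median of -0.87. Of the 19 antisense-overlap members, 15 were above 0 and 4 below, with a median of 0.29 and a range of -0.74 to 0.76. The 2 ranges overlap only through Gm26584 at -0.74. The other intergenic members had a median of -0.31, with 9 above 0 and 20 below. Over all genes 49.8% were above 0. Among the predicted-symbol lincRNAs under 5 TPM, the medians were -0.30 for 38 divergent-start and 0.06 for 64 antisense-overlap genes. Among the other-symbol lincRNAs they were -0.52 for 4 and 0.10 for 6 genes. The order of these 2 classes was thus the same in each set, with wide overlap among genes under 5 TPM.

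**Figure D3:**
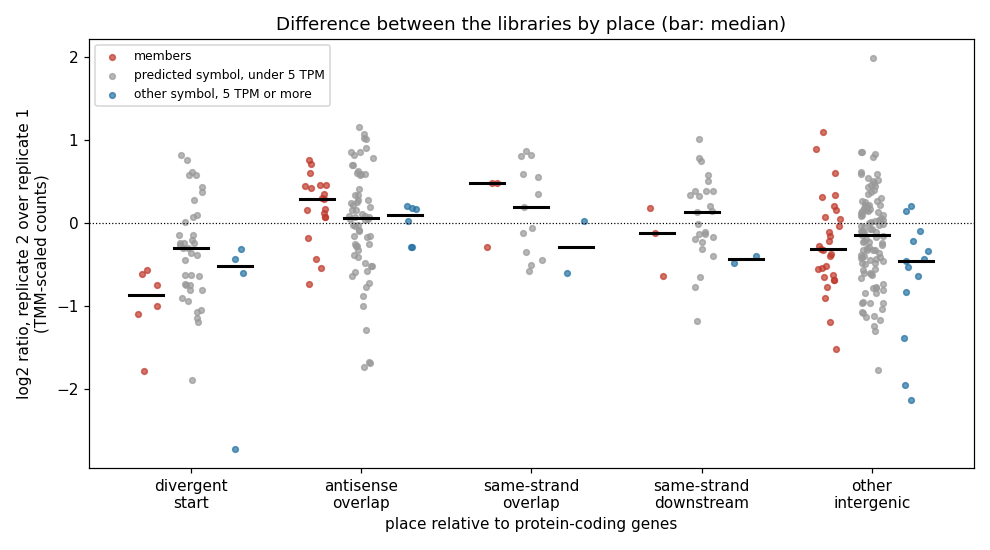
Log2 ratio of TMM-scaled counts, replicate 2 over replicate 1, by place relative to protein-coding genes, for members, predicted-symbol lincRNAs under 5 TPM and other-symbol lincRNAs at 5 TPM (each point a gene, each bar a median). The 6 divergent-start members all lie below 0 (median -0.87), and 15 of 19 antisense-overlap members lie above it (median 0.29).

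The coding partners of the divergent-start members moved less. Zcchc2, whose start lies 124 bases from that of Gm7160, had a log2 ratio of -0.63 beside -1.78 for the lincRNA. Nlrc5, an activator of MHC class I genes, had -0.22 beside -1.09 for 9330175E14Rik. Marcks had -0.32 beside -0.99 for 5930403N24Rik. The lincRNA thus lay below its partner in these pairs, and it did so in 5 of the 6. Efhd2, which encodes a calcium-binding protein, had -0.47 beside -0.61 for Gm29367. Kmt2e, which encodes a chromatin reader of the trithorax group, had 0.07 beside -0.56 for 5031425E22Rik. The exception was Gm10419 at -0.74, beside -1.30 for the predicted coding gene Gm42517.

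Among antisense-overlap members the lincRNA tended to lie above its partner in ratio, in 13 of the 18 pairs with both values. The partners' median log2 ratio was -0.06, beside 0.29 for the members. In level, 16 of 19 members were below their partner, and the exceptions were Gm26603, Gm26804 and A330023F24Rik. Where several coding genes overlapped, the partner was the one with the highest mean TPM, and this choice favours a level above the member's. Across the 18 pairs Spearman's rank correlation of the ratios was 0.55, and across the 19 pairs that of the levels was 0.38. These are descriptions across genes that share libraries and loci, and not tests. Of the 19, 8 had no exonic base on an opposite-strand exon, and 6 of the 7 among these with a partner ratio lay above their partner. Because the strand setting is not given, reads from partner introns cannot be told apart from those of the lincRNA in these members. The part of such reads in the ratios was not tested. For comparison, the median log2 ratio was 0.42 over 128 sense-intronic genes and 0.36 over 974 genes of the provisional annotation type TEC, against -0.02 over 10697 coding genes. Starting RNA and depth also differed between the libraries, and their part in the ratios was not tested.

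The authors' second quantification of the same libraries gave other levels for some members. The median log2 ratio, second over first, was -0.27 over the 61 members and -0.23 over all 5682 genes at 5 TPM. More than 2-fold higher in the second were 8 members, where 4.21% of those genes were, and more than 2-fold lower were 4, where 1.74% were. In the second quantification 52 of the 61 members (85.2%) stayed at 5 TPM or more, against 90.9% of all 5682 genes. A further 147 predicted-symbol lincRNAs reached 5 TPM in both libraries there, of which 75 were listed at 0 in both libraries in the first. Which RNAs count as abundant therefore differed between the quantifications.

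Sequence shared with other genes went with many of these differences. The longest transcript of each member was aligned to all annotated transcripts, and stretches of at least 100 bases at 95% identity were counted on either strand. In all, 33 members shared none, 13 shared less than 50% of the transcript and 15 shared 50% or more. Of the 15, 8 differed more than 2-fold between the quantifications, against 4 of the other 46. The part of shared sequence in these differences was not tested further.

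Gm10076 was listed at 0.21 TPM in replicate 2 and 0.00 TPM in replicate 1 in the second quantification, against 9.70 and 17.8 TPM in the first. Of its transcript, 99.7% matched Rpl41, a ribosomal protein gene, at up to 99.5% identity. Its reads cannot be told apart from those of Rpl41 with certainty. Gm26699 was at 0.00 TPM in replicate 2 and 3.19 TPM in replicate 1 in the second, against 18.97 and 13.3 TPM in the first. It lies on exons of Luc7l2 on the other strand over 99.7% of its exonic bases, and Luc7l2 had 287 TPM in replicate 2 and 196 TPM in replicate 1. Both members were under 5 TPM in the second quantification.

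A few members were far higher in the second quantification. Gm26809 had 801 TPM in replicate 2 and 442 TPM in replicate 1 there, against 33.9 and 23.6 TPM in the first. Gm12840 had 171 TPM in replicate 2 and 80.7 TPM in replicate 1, against 14.3 and 8.49 TPM. Gm43305 had 174 TPM in replicate 2 and 145 TPM in replicate 1, against 23.9 and 20.5 TPM. Gm12840 matched Gm26809 in reverse, and Gm20186 on the same strand, over 100% of its transcript. Gm26809 shared 80.7% of its own transcript with 5 genes. Whether the levels of Gm12840 and Gm26809 rest in part on the same reads was not tested. Gm43305 shared 28.6% of its transcript with 8 genes, Gm42031 among them. By contrast Gm20559, with 217 TPM in replicate 2 and 252 TPM in replicate 1 in the second, and Gm26780, with 99.2 and 41.3 TPM, kept levels within 2-fold of the first.

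**Figure D4:**
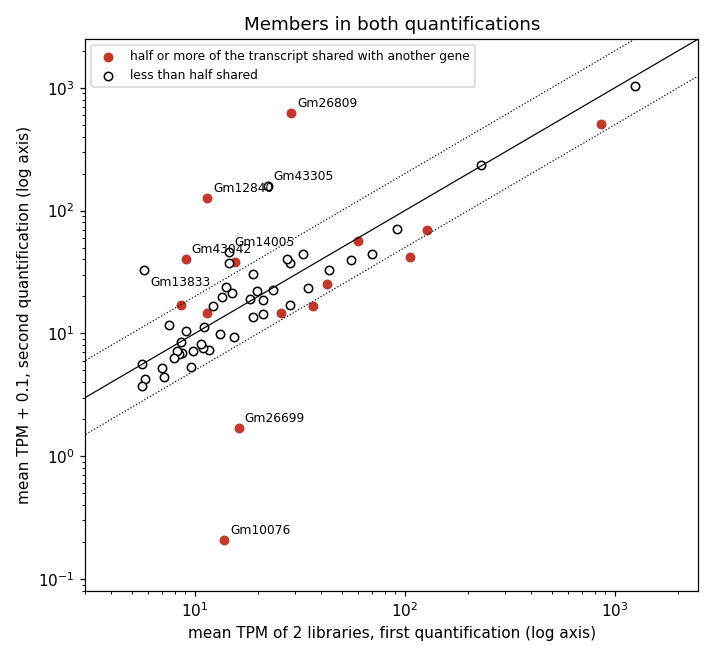
Mean TPM over both libraries in the second quantification (plus 0.1, vertical) against the first (horizontal), both on log axes, for the 61 members, with filled points for the 15 that share 50% or more of their transcript with another gene. The solid line marks equal levels and the dotted lines 2-fold differences, and Gm26809 and Gm10076 lie furthest from them.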

How the data were processed

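Total RNA of the nucleoplasmic fraction was measured in 2 libraries of 1 group. Per the file headers and accompanying notes, the authors deposited for each a gene and a transcript table on mm10 with GENCODE M21, and a second transcript table made from the reads directly; for the aligner, quantifiers and strand setting the sources used here give no name. Estimated counts, as deposited by the authors, are unnormalized and need not be whole. The deposited TPM are relative abundances over all features, and the deposited FPKM, scaled to length and library size, served as an alternative. Only for Gm28872 are the authors' interval bounds of TPM (unit signal) used. Levels are those of the first quantification unless the second is named, where transcript TPM were summed per gene.

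Ratios used edgeR 4.0.16 in R 4.3.3 (filterByExpr, TMM, prior count 2, counts rounded to whole numbers) over genes held by both quantifications, and were checked on simulated data. Differences between quantifications are mean log2 ratios of TPM + 0.1. DESeq2 1.42.0 gave alternative size factors, and blastn 2.17.0 the shared sequence. Places come from GENCODE M21. Members, lists and classes were chosen with earlier results of these data known. Named members were the 12 highest in mean TPM, the 5 highest and 5 lowest ratios, the 5 that differed most between quantifications, those within 50 kb of a response gene, and 3 on either side of the threshold; others were named for a hosted RNA, a RefSeq name, a partner or a structure, after their values were seen. No p-value is given.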

Additional observations from a re-analysis of the deposited data

How the results depend on the processing

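The number of members depended on the level rule. It was 122 at 2 TPM, 37 at 10 TPM, 199 in the second quantification and 120 when TPM were recomputed over features with an effective length of 200 or more, against 61. With replicate 1 or 2 left out it ranged from 68 to 75. Of the members, 5 were beyond 2-fold between the libraries, and 3 without the 15 members that share 50% or more of their transcript, an alternative chosen after seeing the data. Without those 15, 4 members differed 2-fold between quantifications, against 12, and with either replicate left out the number was 11 to 13. All 6 divergent-start members were below 0 and 15 of 19 antisense-overlap members above 0 under 5 other scalings or filters; in the second quantification 5 and 14 were. In the second quantification Gm36161 fell short of 2-fold at 0.97 and 9330175E14Rik at -0.73. The log2 ratio of Gm10076 there was 1.33, but from only 0.21 TPM in replicate 2 and 0 TPM in replicate 1. At such levels the constant added to TPM largely sets the ratio, so no change of direction is read from it. 5930403N24Rik passed 2-fold by TPM (-1.06), FPKM (-1.07) and without the filter (-1.002). Divergent starts within 5 kb numbered 11, of which 9 were below 0, and no member (0) started within 2 kb past a same-strand coding gene. Within 100 kb 2 members had a response gene. The leading transcript held a median of 57.7% in the second transcript table, against 73.3%. On the given strand 7 promoters held a motif, against 11 on both. Depth limits 8 members with under 50 counts in a library. No paired analysis was possible because there is only 1 group.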
